A study of Mus musculus with 15 samples.

Results

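MHC class II antigen presentation was followed here through 9 of the 18279 genes of the table, chosen by symbol: *H2-Aa*, *H2-Ab1*, *H2-Eb1*, *H2-DMa*, *H2-DMb1*, *H2-Oa*, *H2-Ob*, *Cd74* and *Ciita*. All 9 were measured in 15 whole subcutaneous tumors and all 9 entered the tests, which ran over 18250 genes. The tumors grew in female BALB/c mice, bought at 4 to 6 weeks of age, from Renca, a mouse renal carcinoma line of BALB/c origin. Tumors 1 to 5 came from control cells, tumors 6 to 10 from *Pbrm1* knockout (KO) clone 4 and tumors 11 to 15 from *Pbrm1* KO clone 18. *Pbrm1* encodes a subunit of a SWI/SNF chromatin remodeling complex, and the comparison asked how its loss in the cancer cells went with the expression of immune genes in the tumor. The control cells are called parental in the sample records, and in the methods Renca cells that received a control CRISPR/Cas9 plasmid. The KO cells received *Pbrm1* CRISPR/Cas9 and homology-directed repair plasmids, which carry puromycin resistance and a red fluorescent protein, and were sorted as single cells. Each KO group is therefore 1 clone, and the host cells of a KO tumor keep *Pbrm1*. The planned end point was a tumor volume of 1000 mm3, with an earlier end for ulcers or a suffering animal. Mice of the study received an antibody to PD-1 or none, and which applied to these tumors is not given in the sources used here.

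MHC class II molecules carry peptides from the endosomal compartment to the cell surface, where CD4 T cells read them. *H2-Aa* and *H2-Ab1* encode the alpha and beta chains of I-A, and *H2-Eb1* the beta chain of I-E. *Cd74* encodes the invariant chain, which fills the peptide groove during assembly and leaves behind the fragment CLIP. H2-DM, a pair of the *H2-DMa* and *H2-DMb1* (or *H2-DMb2*) chains, exchanges CLIP for other peptides, and H2-DO, a pair of the *H2-Oa* and *H2-Ob* chains, is a modulator of H2-DM known mainly from B cells and some dendritic cells. *Ciita* encodes the transactivator that class II genes depend on. Dendritic cells, B cells and macrophages express class II constitutively, and interferon-gamma (IFNγ) induces it, through IRF1 and CIITA, in many other cells. In a whole tumor, fewer cells of a type and less RNA per cell cannot be told apart.

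Class II promoters carry a conserved pair of elements, the X box, bound by the RFX complex, and further downstream the Y box, bound by NF-Y. The stretches below are shown because class II genes are known for this design, 7 of the 9 genes lie side by side in the class II region of chromosome 17, and *H2-Oa* was the one whose level separated the groups. Sequences are from RefSeq on build GRCm38.p6, in windows from 250 bases before to 50 bases after the annotated start. Each is read 5′ to 3′ on the gene's strand. Capitals mark AGCAAC, letters of the X box, and ATTGG, the core of the Y box.
*H2-Oa*, chr17:34092286-34092355, + strand: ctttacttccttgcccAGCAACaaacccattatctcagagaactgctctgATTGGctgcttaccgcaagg
*H2-Ob*, chr17:34238798-34238867, + strand: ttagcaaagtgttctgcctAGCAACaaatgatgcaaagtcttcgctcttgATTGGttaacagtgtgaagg
*H2-Eb1*, chr17:34305758-34305827, + strand: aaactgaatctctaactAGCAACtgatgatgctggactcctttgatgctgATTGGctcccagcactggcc
*H2-Aa*, chr17:34287852-34287921, − strand: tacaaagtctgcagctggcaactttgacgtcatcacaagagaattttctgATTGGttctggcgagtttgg
*H2-DMb1*, chr17:34153080-34153149, + strand: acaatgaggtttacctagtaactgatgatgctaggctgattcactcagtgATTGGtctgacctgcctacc
*H2-Oa*, *H2-Ob* and *H2-Eb1* held both letter strings on the gene's strand, and from AGCAAC to ATTGG the distances were 34, 31 and 33 bases. Such a pair at 25 to 40 bases was found in 41 of 32851 windows of the same length (0.125%). AGCAAC alone was present on either strand in 14.8% of windows and ATTGG alone in 37.4%, and on the gene's strand in 7.73% and 22.1%. *H2-Aa* and *H2-DMb1* held ATTGG, starting 48 and 61 bases before the start, without an exact AGCAAC before it. In *H2-DMa*, ATTGG was found before the second of its RefSeq starts, at 198 bases, and not in the window of the other. *H2-Ab1* and *Ciita* are named only, and no sequence is given for *Cd74*. By GENCODE M21 on GRCm38, whose first start can lie upstream of that of RefSeq, the *H2-Oa* stretch spans the start of the gene, the *H2-DMb1* stretch lies just inside it and the other 3 lie upstream. The H2 genes extend from *H2-Oa* at chr17:34092340-34095234 to *H2-Eb1* at chr17:34305867-34316674, and *Ciita* lies at chr16:10480059-10528418.

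The targeted gene followed the labels. *Pbrm1* had a mean normalized read count of 9012 ± 956.3 (SD, n = 5) in control tumors, 2751 ± 212.7 (n = 5) in clone 4 and 2838 ± 210.3 (n = 5) in clone 18, and all 10 KO tumors were below all 5 control tumors. A normalized read count is the number of reads on a gene divided by a size factor of the tumor. The tumors held 32924414 to 49099168 reads on genes. Control tumors 1 and 2 were the highest and the lowest of the controls in leukocyte markers. Their summed counts of 6 pan-leukocyte markers were 28954 and 17138. The other 3 control tumors lay between 19487 and 25071. Many of the results that rest on these tumors are also given without them.

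*H2-Oa*, the alpha chain of H2-DO, was the class II gene that separated the groups. Its normalized counts were 340.0, 384.9, 359.8, 366.4 and 289.7 in control tumors 1 to 5. They were 42.4, 59.2, 41.8, 55.8 and 80.2 in clone 4, tumors 6 to 10, and 50, 33.2, 44.5, 48.1 and 45.9 in clone 18, tumors 11 to 15. The lowest control tumor was thus above the highest KO tumor, without overlap. Control tumor 2, the lowest control in leukocyte markers, was the highest control in *H2-Oa*, and tumor 1 was not an extreme. Control tumors held 274 to 437 reads on *H2-Oa* and KO tumors 27 to 72. The KO mean was 6.98-fold lower than the control mean, a log2 difference of -2.80 ± 0.17 (SE) with a 95% interval of -3.17 to -2.44 and an adjusted p of 1.73e-08. Log2 differences here are between group means of log2(normalized count + 1), tested with limma and adjusted over all genes. By p, *H2-Oa* ranked 5 of 18250 genes. The exact two-sided permutation test over 3003 splits gave p = 0.000333, the smallest it can give. Among all tested genes, 4.87% had all 10 KO tumors below all 5 control tumors.

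Both clones gave this difference in *H2-Oa*. Against control, the log2 difference was -2.65 ± 0.19 (SE) in clone 4 (adjusted p = 6.68e-08) and -2.95 ± 0.19 in clone 18 (adjusted p = 1.57e-08). Between the clones the difference was -0.30, with an interval of -0.70 to 0.10. Both comparisons share the control tumors. In 24 alternative settings and subsets of tumors the KO difference stayed between -2.88 and -2.71 and passed the threshold each time. Of the exon bases of *H2-Oa*, 22.8% overlap the antisense gene BC051537. Whether the counting used strand is not given, so reads of the pair cannot be told apart.

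*H2-Ob*, the partner chain in H2-DO, gave another picture at much lower levels. Its normalized counts were 91.7, 18.5, 52.9, 39.2 and 58.2 in control tumors, with tumor 1 highest and tumor 2 lowest. In clone 4 they were 30.9, 28.7, 29.8, 75.1 and 63.5, and in clone 18 they were 25.5, 30.8, 23.6, 37.1 and 41.4. The 3 groups overlapped. The KO difference was -0.35 ± 0.33 (SE; interval -1.05 to 0.35, adjusted p = 0.504). Its smallest library held 18 reads on the gene.

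**Figure D1:**
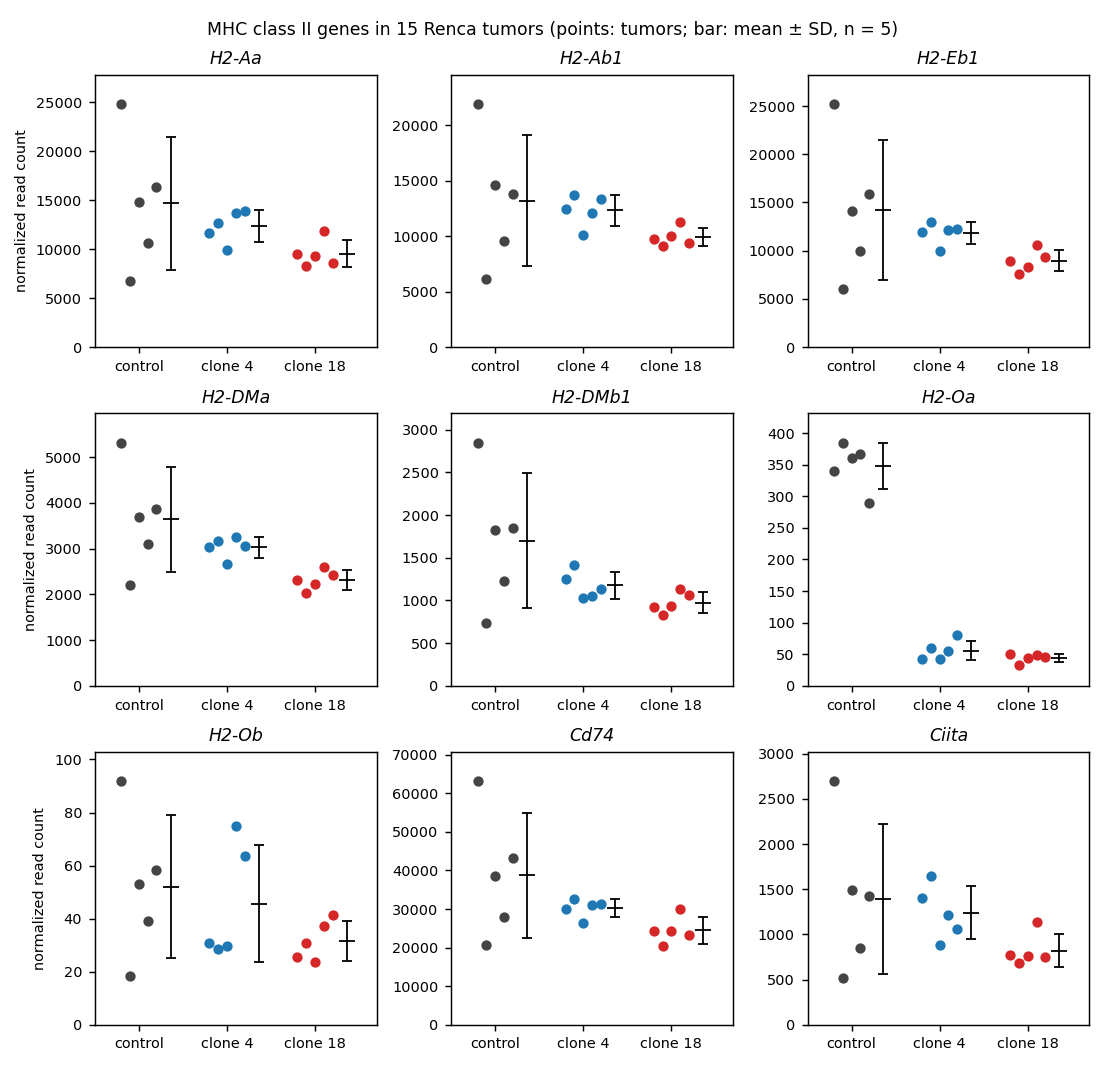
Normalized read counts (y axis, from 0, a scale per gene) of the 9 class II genes in control, clone 4 and clone 18 tumors; each point is 1 tumor, in order of its number within a group, and bars are the mean ± SD (n = 5). *H2-Oa* separates control (289.7 to 384.9) from KO tumors (33.2 to 80.2), while the other genes overlap and spread widely among the control tumors.

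Neither H2-DM chain passed the threshold between all KO and control tumors. *H2-DMa* had counts of 5321.0, 2216.8, 3702.8, 3094.9 and 3877.2 in control tumors. It had 3034.7, 3160.1, 2662.8, 3263.2 and 3051.1 in clone 4 and 2315.5, 2036.3, 2223.9, 2608.1 and 2428.2 in clone 18. All 10 KO tumors lay below the control mean, but only 1 lay below all 5 control tumors, since control tumor 2 was low. Between KO and control tumors the difference was -0.40 ± 0.16 (SE; interval -0.73 to -0.076, adjusted p = 0.0731). In clone 18 alone *H2-DMa* fell by 0.60 ± 0.16 on the log2 scale (adjusted p = 0.0103), a 1.51-fold lower level, while in clone 4 the difference was -0.21 ± 0.16 (adjusted p = 0.422). All 5 clone 18 tumors were below all 5 clone 4 tumors, yet the difference between the clones (-0.39, interval -0.72 to -0.056) did not pass after adjustment over all genes (adjusted p = 0.189).

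*H2-DMb1*, the beta chain, had counts of 2847.9, 741.6, 1824.0, 1228.1 and 1848.2 in control tumors. It had 1250.7, 1415.2, 1024.5, 1057.0 and 1139.6 in clone 4 and 923.6, 830.5, 932.0, 1130.7 and 1059.1 in clone 18. Every KO tumor was below the control mean and above control tumor 2. The KO difference was -0.54 ± 0.21 (SE; interval -0.98 to -0.088, adjusted p = 0.0822). *H2-DMb1* shares 22.65% of its 50-base transcript stretches with *H2-DMb2*, so reads may be split between them. *H2-DMa* overlaps *Brd2* on the other strand over 10.4% of its exon bases.

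The antigen-presenting chains themselves overlapped between the groups. *H2-Ab1* was measured at 21917.5, 6144.1, 14552.3, 9565.9 and 13804.4 in control tumors, with tumor 1 the highest and tumor 2 the lowest of all 15. It was at 12427.2, 13659.0, 10111.0, 12078.8 and 13376.4 in clone 4 and at 9753.9, 9124.6, 9976.9, 11258.5 and 9381.6 in clone 18. Its difference in KO tumors was -0.14 ± 0.20 (SE; interval -0.56 to 0.29, adjusted p = 0.689). In clone 4 it was 0.02 (interval -0.45 to 0.49) and in clone 18 it was -0.29 (interval -0.77 to 0.18).

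*H2-Aa* was measured at 24854.7, 6790.6, 14798.1, 10668.5 and 16319.7 in control tumors. It was at 11689.5, 12630.8, 9932.9, 13669.4 and 13871.0 in clone 4 and at 9549.8, 8290.4, 9315.9, 11885.0 and 8630.4 in clone 18. The control tumors covered the whole range of both clones. Against control, KO tumors differed by -0.32 ± 0.21 (SE; interval -0.77 to 0.13, adjusted p = 0.323).

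*H2-Eb1* was measured at 25241.2, 6034.0, 14103.5, 9917.8 and 15891.5 in control tumors. It was at 11940.2, 12962.4, 9971.7, 12123.1 and 12278.1 in clone 4 and at 8936.5, 7610.0, 8338.1, 10583.9 and 9346.9 in clone 18. The control tumors took the same order as for *H2-Aa*, from tumor 1 through 5, 3 and 4 to tumor 2. Across all KO tumors the difference was -0.32 ± 0.23 (SE; interval -0.80 to 0.17, adjusted p = 0.361).

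*Cd74*, the most abundant of the genes, had counts of 63056.5, 20712.6, 38663.5, 28053.5 and 43302.6 in control tumors. It had 30004.9, 32627.3, 26303.4, 31092.4 and 31197.5 in clone 4 and 24364.4, 20531.6, 24323.2, 29960.5 and 23255.8 in clone 18. All 10 KO tumors were below the control mean and 1, tumor 12, was below all control tumors. KO and control means differed by -0.42 ± 0.19 (SE; interval -0.81 to -0.022, adjusted p = 0.125), and in clone 18 alone it was -0.57 ± 0.21 (adjusted p = 0.0523).

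*Ciita*, the transactivator, had counts of 2693.6, 521.4, 1492.0, 851.6 and 1421.0 in control tumors, a 5.17-fold range. It had 1404.1, 1644.6, 886.3, 1218.6 and 1054.9 in clone 4 and 770.5, 687.8, 763.1, 1140.7 and 747.8 in clone 18. The control tumors enclosed every KO tumor. The KO difference was -0.28 ± 0.29 (SE; interval -0.89 to 0.33, adjusted p = 0.539), with 0.01 in clone 4 (interval -0.64 to 0.67) and -0.58 in clone 18 (interval -1.23 to 0.08).

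In the comparison of all KO with control tumors, 1 of the 9 genes thus passed the threshold, *H2-Oa*, where 22.1% of all genes tested passed it, 12.9% as lower and 9.23% as higher. Of the called genes 58.3% were lower, and 46.5% after quantile normalization. In clone 4, 1 of 9 passed, against 16.8% of all genes, and in clone 18, 2 of 9 (*H2-Oa* and *H2-DMa*), against 24.7%. Between clone 18 and clone 4, 0 of 9 passed in limma, edgeR or DESeq2, against 4.62% of all genes in limma. This limma fit shared its spread with the control tumors, which spread widest of the groups for every member but *H2-Oa*. At an unadjusted p under 0.05, limma had 1 of the 9 (*H2-DMa*, p = 0.0245), and the exact permutation test over 252 splits had 6, all lower in clone 18 (*H2-Aa*, *H2-Ab1*, *H2-Eb1*, *H2-DMa*, *Cd74* and *Ciita*, p = 0.00794 to 0.0238). In limma, *H2-DMa* ranked 2367 of 18250 genes by p. The exact test was not run over all genes, so no share of all genes stands beside its 6. These 6 genes moved together within groups (Pearson r of 0.93 to 0.99) and are not separate results. The mean of each of the 9 genes was lower in KO than in control tumors, with a median log2 difference of -0.35, while the median of all tested genes was -0.019. By the exact permutation test over the tumors, unadjusted, 3 of the 9 were under 0.05, *H2-Oa*, *H2-DMa* (p = 0.0376) and *H2-DMb1* (p = 0.0406). Only *H2-Oa* kept this in each subset of tumors, since the count was 1 to 6 of 9 with 1 tumor left out. This test too was not run over all genes, so these counts have no share of all genes beside them. In limma, *Cd74* at an unadjusted p of 0.0395 ranked 5764 of 18250 genes, so unadjusted values under 0.05 were common.

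These counts depended on control tumor 2, in which 8 of the 9 genes, all but *H2-Oa*, were at their lowest among the control tumors. Without it, 6 of the 9 genes passed as lower in KO tumors (*H2-Oa*, *H2-Aa*, *H2-Eb1*, *H2-DMa*, *H2-DMb1* and *Cd74*), 3 in clone 4 and 8 in clone 18, all but *H2-Ob*. Of all 18250 genes, 3219 then passed in KO tumors (1965 as lower), 2510 in clone 4 and 3904 in clone 18. Without control tumor 4, 4 passed in clone 18, where 4056 of 18250 genes did. Without both control tumors 1 and 2, 2 passed in KO tumors (*H2-Oa* and *H2-DMb1*), 1 in clone 4 and 6 in clone 18. Of all 18250 genes, 2123, 1923 and 2974 passed, in the same order. On the recovered read counts, edgeR called 3 (*H2-Oa*, *H2-DMa* and *H2-DMb1*) and DESeq2 4 (these and *Cd74*) in KO tumors. Over all genes, edgeR called 4105 of 18250 and DESeq2 4615 of 18239. *H2-DMa* in clone 18 passed in all 24 settings, and *H2-Ob* in none of any comparison with control. In KO against control, *H2-Ab1* and *Ciita* passed in none either, while the calls of *H2-Aa*, *H2-Eb1*, *H2-DMa*, *H2-DMb1* and *Cd74* changed with the tumors or the test used.

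**Figure D2:**
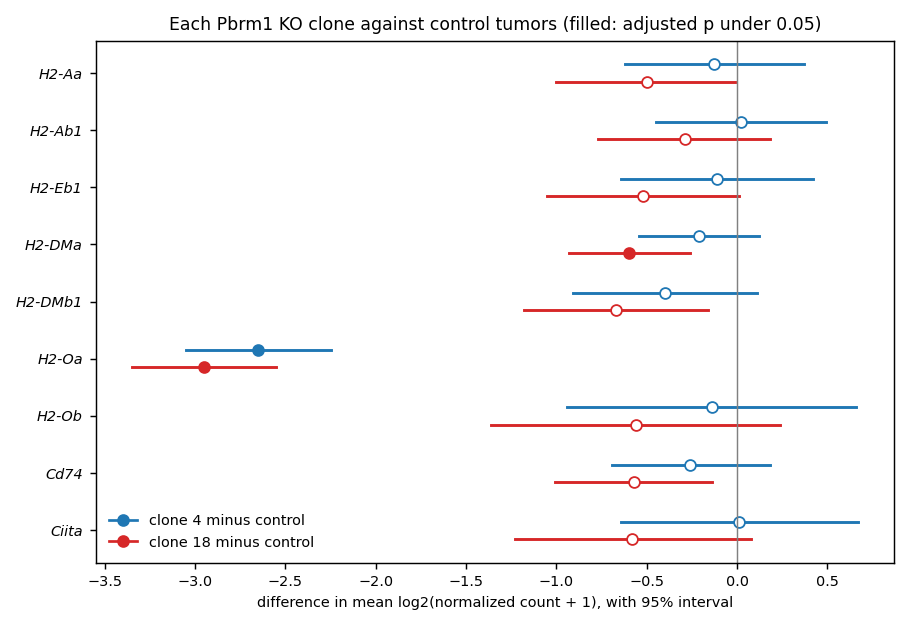
Difference in mean log2(normalized count + 1) between each KO clone and the control tumors (x axis, log2) for the 9 genes, with 95% intervals from limma; filled points passed the threshold after adjustment over all genes. *H2-Oa* lies at -2.65 and -2.95, apart from the others, and clone 18 lies to the left of clone 4 for each gene.

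The genes around *H2-Oa* did not show a difference of its size. Of 11 other genes of the table within 100 kb, a set chosen after the values were seen, 1 passed the threshold, *Psmb9*, an immunoproteasome subunit, with a KO difference of -0.52 ± 0.15 (SE; adjusted p = 0.0178). The 11 differences ran from -0.54 to 0.25. *Col11a2*, a collagen gene on one side of *H2-Oa*, was at 0.25 ± 0.24 (adjusted p = 0.512), and *Brd2*, a chromatin reader on the other, was at 0.12 ± 0.05 (adjusted p = 0.121).

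**Figure D3:**
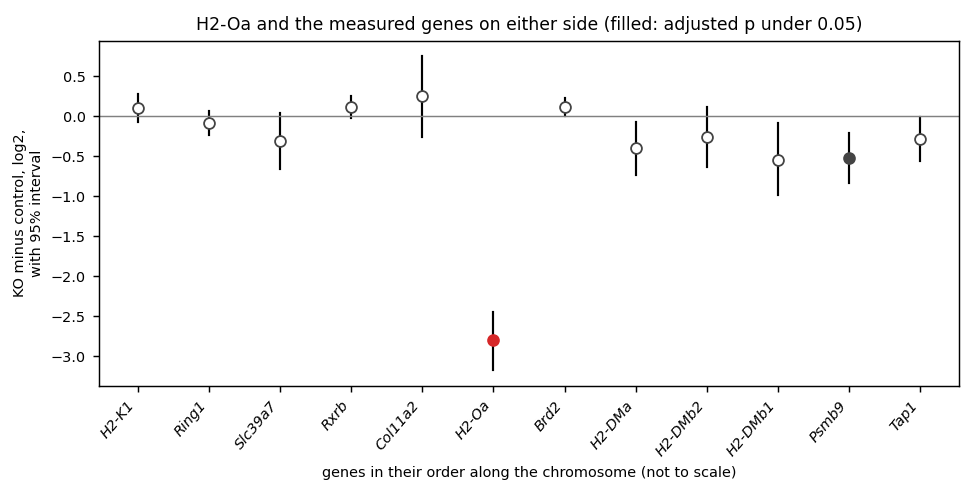
KO minus control difference in mean log2(normalized count + 1) (y axis) for *H2-Oa* and 11 measured genes within 100 kb, in chromosomal order and not to scale, with 95% intervals; filled points passed the threshold. *H2-Oa* is at -2.80 and the other genes lie between -0.54 and 0.25.

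Per length, the order of the levels was almost the same in every tumor. In normalized counts per kb of exon, control tumors had means of 23084 ± 9656 (SD, n = 5) for *Cd74*, 7324 ± 3725 for *H2-Eb1*, 5139 ± 2313 for *H2-Ab1* and 3867 ± 1788 for *H2-Aa*. *H2-DMa* followed at 1056 ± 330.9 and *H2-DMb1* at 1010 ± 469.9, and these 2 were not ordered beyond their spread, since *H2-DMa* was the higher in 3 of 5 control tumors. *H2-Oa* stood at 247.4 ± 25.9, *Ciita* at 146.4 ± 87 and *H2-Ob* at 9.68 ± 5.01. From *Cd74* through *H2-Aa* to *H2-DMa*, each gene was above the next in 15 of 15 tumors. Exon bases are the union over annotated transcripts, and the reference is of C57BL/6 type at this polymorphic locus while the mice and cells are BALB/c, which applied to every tumor. Its effect on levels between genes was not tested.

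The place of *H2-Oa* in this order was the exception. Per kb, it was above *Ciita* in 4 of 5 control tumors, and *Ciita* was above *H2-Oa* in all 10 KO tumors. The ratio of *H2-Oa* to *H2-Ob*, the chains of H2-DO, was 14.2 to 79.6 per kb in control tumors, 2.84 to 7.89 in clone 4 and 4.12 to 7.5 in clone 18. On the log2 scale this ratio was lower in KO tumors by a difference of -2.45 (exact permutation p = 0.000333, adjusted p = 0.000833 over 5 ratios, chosen after the values were seen).

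The ratios of *Cd74* and of *H2-Aa* to *H2-Ab1* removed most of the shared spread of the control tumors. *Cd74* per *H2-Ab1* was 4.4, 5.16, 4.06, 4.49 and 4.8 per kb in control tumors, 3.69, 3.65, 3.98, 3.94 and 3.57 in clone 4, and 3.82, 3.44, 3.73, 4.07 and 3.79 in clone 18. Of the 10 KO tumors, tumor 14 alone reached the lowest control tumor. The log2 ratio was lower in KO tumors by a difference of -0.28 (exact permutation p = 0.000666, adjusted p = 0.00111). *H2-Aa* per *H2-Ab1* averaged 0.751 ± 0.0407 (SD, n = 5) in control tumors, 0.678 ± 0.0567 for clone 4 and 0.649 ± 0.0406 for clone 18. With overlap between the groups, its log2 difference was -0.18 (exact permutation p = 0.00699, adjusted p = 0.00874). *H2-DMa* per *H2-DMb1* still ran from 0.911 to 1.46 in control tumors, and its log2 difference was 0.13 (exact permutation p = 0.218). With each tumor left out, the *Cd74* ratio stayed between -0.32 and -0.23 and the *H2-Aa* ratio between -0.21 and -0.16, each with an exact permutation p under 0.05.

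Across tumors the class II genes moved together, with *H2-Oa* apart. Within groups, that is on log2 values minus the mean of the group, the 21 pairs among the 7 genes other than *H2-Oa* and *H2-Ob* had Pearson r of 0.93 to 0.99 over the 15 tumors. *H2-Ob* reached 0.64 to 0.81 with these 7, and *H2-Oa* only -0.075 to 0.15 with the other 8. In control tumors the SD of the log2 values was 0.46 to 0.89 for the 8 genes other than *H2-Oa* and 0.16 for *H2-Oa*, where the median over 16494 genes was 0.17. In clone 18 the SDs of the 9 genes were 0.12 to 0.33 and in clone 4 they were 0.11 to 0.66, so most of the shared movement came from the control tumors.

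*Ciita* moved with the other class II genes except the H2-DO chains. Its r with *H2-Ab1* was 0.96 (Spearman rho 0.90, permutation p = 0.00018, adjusted p = 0.00033 over 11 relations), and without tumors 1 and 2, the farthest from the median, r was 0.87. Its r was 0.93 with *H2-Aa*, 0.96 with *H2-Eb1*, 0.95 with *H2-DMa*, 0.96 with *H2-DMb1* and 0.96 with *Cd74*, with adjusted permutation p of 0.00123 or less for r and 0.00522 or less for rho (0.83 to 0.91). Without tumors 1 and 2 these were 0.76 to 0.89. With *H2-Ob* r was 0.64 (rho 0.36, adjusted permutation p = 0.0632) and only 0.10 without tumors 1 and 2, so that relation rested on them. With *H2-Oa* r was -0.068 (rho -0.054, adjusted permutation p = 0.764) and 0.085 without these tumors. Within the groups, of 5 tumors each, r of *Ciita* with *H2-Ab1* was 1.00 in control, 0.72 in clone 4 and 0.96 in clone 18, and with *H2-Aa* it was 0.99, 0.39 and 0.97.

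**Figure D4:**
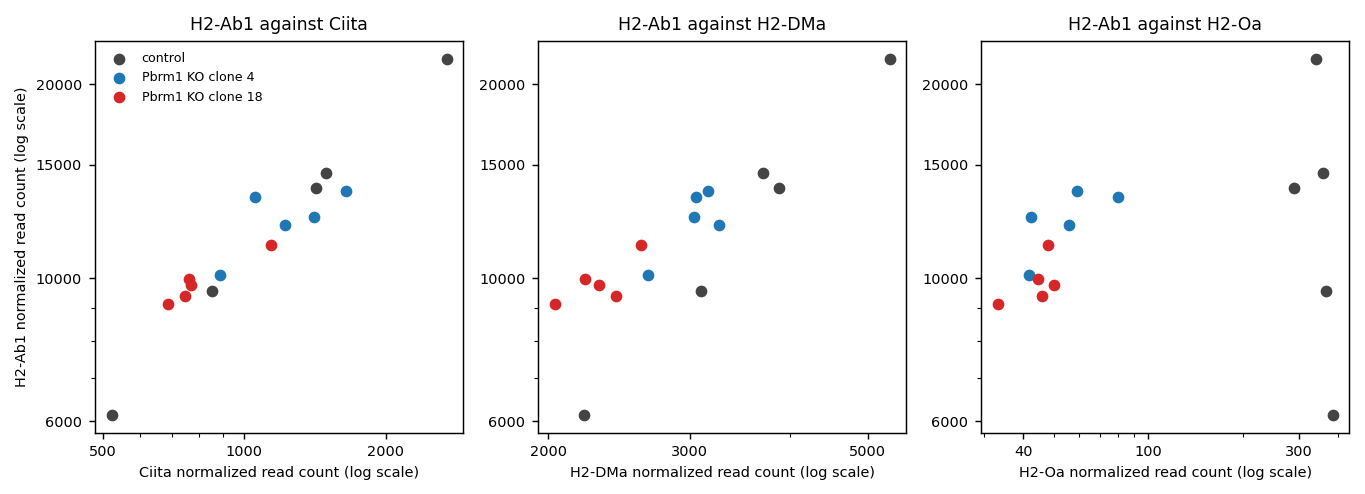
*H2-Ab1* (y axis) against *Ciita*, *H2-DMa* and *H2-Oa* (x axes), all as normalized read counts on log scales; each point is 1 tumor, colored by group. *H2-Ab1* rises with *Ciita* and *H2-DMa* through all groups, while on *H2-Oa* the control tumors form a column to the right at 289.7 to 384.9 whatever their *H2-Ab1*.

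**Figure D5:**
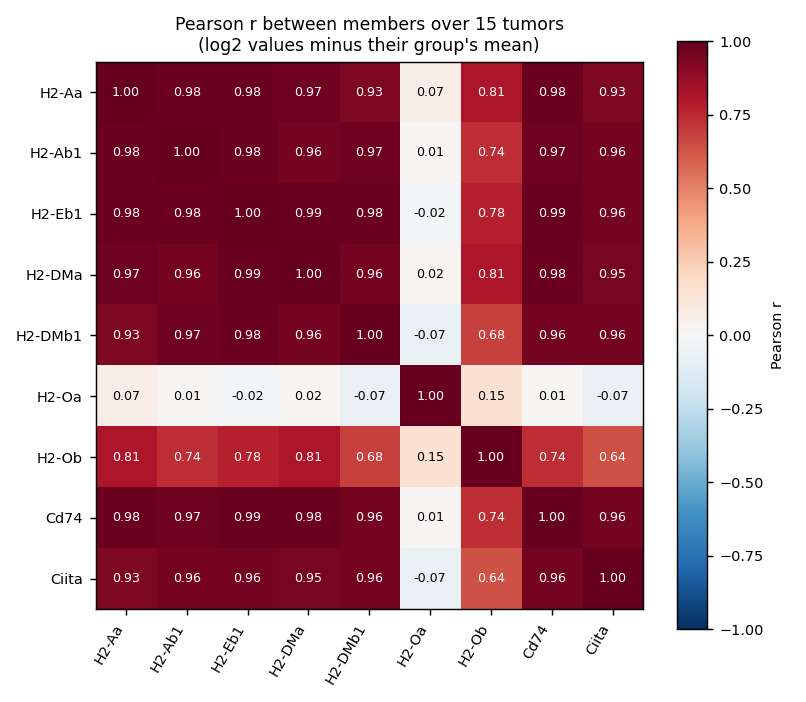
Pearson r (color and number) between the 9 genes over 15 tumors, on log2 values minus the mean of each tumor's group. Pairs without *H2-Oa* lie at 0.64 to 0.99, and the row and column of *H2-Oa* at -0.075 to 0.15.

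Among 16485 other genes with a mean count of at least 10, likeness to the mean of *H2-Aa*, *H2-Ab1* and *H2-Eb1* was ranked. Across the 15 tumors, within groups, the most alike were *H2-Ea-ps* (r = 0.99) and *H2-DMb2* (r = 0.98), the other beta chain of H2-DM. *H2-Ea-ps* is a class II gene named as a pseudogene in the reference, which is not of the BALB/c strain of these mice and cells. Its mean normalized count was 9169, and whether it is a pseudogene in BALB/c was not tested. *Ctsh*, a lysosomal cathepsin, followed at 0.92, then *Cd302* (0.91), *Il16* (0.90), *Pld4* (0.90), *Arl10* (0.90) and *Cd300a* (0.89). These are descriptions, and the tumors share host background and depth range. Of these 8 genes, *Pld4*, a lysosomal exonuclease, passed the threshold between KO and control tumors, at -0.53 (adjusted p = 0.0234).

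Class II levels were set beside markers of 3 cell types that carry them. *H2-Ab1* had r = 0.92 with the sum of 12 dendritic cell markers (rho 0.81, adjusted permutation p = 0.000302 over 11 relations) and 0.80 without tumors 1 and 2. This sum was 3736 to 6580 in control tumors, 4562 to 5983 in clone 4 and 4821 to 5541 in clone 18. Higher in KO tumors, without passing, were *Ccr7* (0.54, adjusted p = 0.327), *Cd209a* (0.43, adjusted p = 0.364), *Itgax* (0.21, adjusted p = 0.469) and *Irf4* (0.18, adjusted p = 0.593). While 12.9% of all genes passed as lower in KO tumors, 2 of the 12 markers did, *Clec9a* (-1.42, adjusted p = 0.0454) and *Clec10a* (-0.63, adjusted p = 0.0491). Without control tumors 1 and 2 neither did, and of 24 settings *Clec9a* was not called in 16 and *Clec10a* in 21. *Bst2* and *Itgax* made up 72.7% to 80.7% of the sum in each tumor. With the sum of 12 macrophage markers r was 0.54 (rho 0.24, adjusted permutation p = 0.148), positive in control tumors (0.99) and negative in clone 4 (-0.69) and clone 18 (-0.98), 5 tumors each. That sum was 136111 to 210716 in control tumors, 118172 to 150119 in clone 4 and 105546 to 141989 in clone 18. *Lyz2* was its largest part in each tumor, with 96429.4 of 210716 in tumor 1 and 43628.7 of 105546 in tumor 14. The sum thus follows this gene closely, and its r with *H2-Ab1* is not a measure of macrophage number. Of the macrophage markers, 6 of 12 passed as lower in KO tumors (5 without control tumors 1 and 2), where 12.9% of all genes did. Among them were *Csf1r*, the receptor for a macrophage growth factor (-0.60, adjusted p = 0.00331), *C1qc* (-0.54, adjusted p = 0.00127) and *Itgam* (-0.52, adjusted p = 0.00231). *Cd68* went the other way (0.12, adjusted p = 0.607). In clone 18 alone, 8 of 12 passed as lower and 1 as higher, *Cd68*, with a mean of 16132 against 12441 in control tumors. Of all genes, 24.7% passed in clone 18. No defining marker of the macrophage, dendritic or B cell lists was at 0 throughout a group. The part of these cells in the class II levels was not tested.

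Of 10 measured B cell markers, 4 passed as lower in KO tumors and 0 as higher, where 12.9% and 9.23% of all genes did. *Pax5* went the other way without passing (0.21, adjusted p = 0.307). In clone 4 alone, 2 markers passed as lower and 1 as higher. The mean of *Pax5* was 832.3 in clone 4 and 623.9 in control tumors. *Cd79a*, a signaling chain of the B cell receptor, had counts of 24.4, 374.3, 160.4, 219.6 and 76.1 in control tumors and 0.0 to 5.2 in the 10 KO tumors (adjusted p = 9.79e-07, with a fitted difference of -5.60 ± 0.52 that depends on the 1 added to each count). Both *Cd79a* and *H2-Oa* were highest in control tumor 2, then in 4 and 3, whereas the chains *H2-Aa*, *H2-Ab1* and *H2-Eb1* were lowest in tumor 2. Over the control tumors *H2-Oa* spanned only 1.33-fold, and its relation to B cell markers was not tested. *Ighm*, the heavy chain of IgM, was at 2192.2 in tumor 1 and 355.8 in tumor 2, with the chains and against *Cd79a* (KO difference -1.42, adjusted p = 0.0252). *Ighd* (-1.79, adjusted p = 0.0273) and *Cd79b* (-1.11, adjusted p = 0.0107) were lower as well. *Ms4a1*, which encodes CD20, did not pass (0.12 ± 0.32, adjusted p = 0.849), and neither did *Cd22* (-0.16) or *Blk* (-0.091). *H2-Ab1* had r = 0.83 with the summed B cell markers (rho 0.74, adjusted permutation p = 0.0107), 0.73 without tumors 1 and 4. Within the groups, of 5 tumors each, this r was 0.94 in control, 0.55 in clone 4 and -0.041 in clone 18. *Pax5* and *Ighm* made up 63.9% to 84.7% of that sum in each tumor. Without control tumors 1 and 2, 1 of the 10 markers, *Cd79a*, passed.

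Other genes of the class II region and the promoter factors were counted beside the 22.1% of all genes that passed between KO and control tumors. Of *H2-Ea-ps*, *H2-DMb2* and *H2-Eb2*, 0 of 3 passed, with differences of -0.27, -0.26 and -1.37. Of 7 promoter factors, *Rfxap*, a subunit of the RFX complex, rose by 0.27 ± 0.09 (SE; adjusted p = 0.036) and *Nfyb*, a subunit of NF-Y, by 0.19 ± 0.06 (adjusted p = 0.0376), while *Creb1* fell by 0.21 ± 0.07 (adjusted p = 0.0453). The other 4 did not pass. Without control tumors 1 and 2 none of the 7 did.

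On the path from IFNγ to *Ciita*, *Ifngr2* passed the threshold and *Ifngr1* did not, and the difference between them was not tested. *Ifngr2*, a chain of the IFNγ receptor, fell by 0.35 ± 0.07 (SE; adjusted p = 0.00195), with counts of 3522.1 to 3981.2 in control tumors, 2778.5 to 3522.3 in clone 4 and 2411.7 to 3008.4 in clone 18, and 9 of 10 KO tumors lay below all control tumors. The other receptor chain *Ifngr1* was at 0.11 ± 0.08 (adjusted p = 0.371), and *Irf1* at 0.024 ± 0.12 (adjusted p = 0.915).

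Of 11 measured endosomal processing genes 1 passed, where 22.1% of all genes did. *March1*, a ubiquitin ligase that removes class II from the surface, was at -0.50 ± 0.17 (SE; adjusted p = 0.0425). This call was absent in 12 of 24 settings, among them that without control tumors 1 and 2. The cathepsin *Ctss*, which degrades the invariant chain, was at -0.24 ± 0.12 (adjusted p = 0.169). *Ifi30*, a lysosomal thiol reductase, was at -0.032 (adjusted p = 0.852).

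Of 6 costimulators and class II receptors, 1 passed, where 22.1% of all genes did. *Cd40*, a receptor on antigen-presenting cells through which T cells activate them, fell by 1.02 ± 0.13 (SE; adjusted p = 2.77e-05), from 1534 ± 227.4 (SD, n = 5) in control tumors to 892.2 ± 49.4 in clone 4 and 628.9 ± 35.1 in clone 18. The 3 groups did not overlap, and the difference between the clones was -0.50 ± 0.09 (adjusted p = 0.00325). *Cd86* (-0.15, adjusted p = 0.42) and *Cd80* (-0.047, adjusted p = 0.91), the ligands of CD28, did not pass. Neither did *Cd4*, the co-receptor that binds class II (-0.91 ± 0.33, adjusted p = 0.0567), nor *Lag3*, another receptor of class II (-0.57, adjusted p = 0.278).

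On the class I side, which presents peptides to CD8 T cells, 3 of 13 genes were lower and 0 higher. For this and the lists below, 22.1% of all genes passed, 12.9% as lower and 9.23% as higher. *Psmb10*, an immunoproteasome subunit, fell by 0.54 ± 0.10 (SE; adjusted p = 0.000682), *Psmb9* by 0.52 ± 0.15 (adjusted p = 0.0178) and the peptide-loading protein *Tapbp* by 0.26 ± 0.09 (adjusted p = 0.0497). Without control tumors 1 and 2, 1 of the 3, *Psmb10*, passed. Among T cell markers, *Cd3g* (-2.30, adjusted p = 0.0013) and *Cd3d* (-2.12, adjusted p = 0.0102) were 2 of 10 that passed, both lower. Among pan-leukocyte markers, *Laptm5* (-0.41, adjusted p = 0.0121) and *Coro1a* (-0.36, adjusted p = 0.0445) were 2 of 6 that passed, and *Coro1a* did not without control tumors 1 and 2. Of 7 renal epithelial and tumor markers, *Lcn2* (-1.60, adjusted p = 0.0008) and *Krt18* (-0.32, adjusted p = 0.0197) were lower and *Epcam* (1.23, adjusted p = 0.00286) was higher. Without control tumors 1 and 2 *Krt18* did not pass. The sum of the 7 was 109496 to 131230 in control and 91239 to 121454 in KO tumors.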

How the data were processed

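The deposited table holds 1 value per gene and tumor, a signal per the authors' methods: tophat2 alignment to mm10, HTSeq gene counts, and division by a DESeq size factor of the tumor. The deposited values are rounded to 0.1. Versions, annotation and strand setting are not given in the sources used here. In each tumor at least 99.68% of values no higher than 8000 fell on whole multiples of a fixed step, within rounding, so whole reads were recovered (median 40860659 per tumor). Within groups, all 30 pairs of tumors differed by more than counting error (chi-square over its degrees of freedom of 17.69 or more). Nothing says that tumors of a group came from separate cultures, so p-values measure the spread between tumors.

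The members and lists were chosen with earlier results of these data known. Of 18279 genes, 29 were at 0 in every tumor and 18250 were tested on log2(value + 1) with limma 3.58.1 with trend, KO against control in one fit and the 3 groups in another, with Benjamini-Hochberg adjustment over all genes at 0.05. The fit of the 3 groups gave each gene a spread that the groups shared. Named genes were the 9 members, *Pbrm1*, *Ifngr1*, *Ifngr2*, up to 6 genes past the threshold per list, and the 8 genes most like the chains. Results for 1 listed gene are not reported here. Some genes that did not pass were named after their values were seen. Relations used 100000 seeded shuffles within groups. The fits were tested on simulated data with 200 changed genes. Alternatives were pseudocounts of 0.1 and 5, a mean of at least 10, upper quartile and quantile scaling, edgeR 4.0.16 and DESeq2 1.42.0 on recovered reads, limma without its trend, and each tumor left out. Positions and exon bases are from GENCODE M21 on GRCm38. Software was scipy 1.17.1, numpy 2.4.6, matplotlib 3.10.9 and pandas 2.3.3 under Python 3.11.15, and R 4.3.3.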

Additional observations from a re-analysis of the deposited data

Results flagged for a closer look

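*Ciita* in clone 18 held 1 tumor far from the others of its group. Tumor 14 was at a normalized count of 1140.7, while the other 4 clone 18 tumors lay between 687.8 and 770.5. Of 27 groups of 5 tumors examined over the 9 genes, this was the only one set apart in this way, and chance sets apart about 1 group in 20.

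The clones differed from one another, by the limma test of the difference between clone 18 and clone 4, in 3 of 107 tested genes of the lists (2.8%), a smaller share than the 4.62% of all genes. *Cd40* was lower in clone 18 by a log2 difference of -0.50 (adjusted p = 0.00325). *Bank1*, a B cell adaptor, was lower by -1.69 (adjusted p = 0.006). *Cd68*, a macrophage marker, was higher by 0.52 (adjusted p = 0.00998).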

How the results depend on the processing

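Over 24 settings and subsets *H2-Oa* kept its direction and its call in KO tumors and in each clone. Of the 9 genes, KO tumors gave 3 calls in edgeR, 4 in DESeq2, 2 without control tumors 1 and 2 (chosen after seeing the data) and 1 to 6 with 1 tumor left out. Clone 18 gave 4 with genes of a mean of at least 10, in edgeR and in DESeq2. It gave 6 without control tumors 1 and 2 and 2 to 8 with 1 tumor left out, and clone 4 gave 1 to 3. Over all genes, KO tumors had 4105 of 18250 called in edgeR and 4615 of 18239 in DESeq2. For clone 18 these were 4536 of 18250 and 4989 of 18221, and 4452 of 16494 with a mean of at least 10. The exact permutation test, which was not run over all genes, gave 1 to 6 genes under 0.05, and the relations 7 to 9 of 11. The causes were not tested. In clone 4, *H2-Ab1* turned to -0.079 in edgeR, -0.089 in DESeq2 and -0.02 without control tumors 1 and 2, and *Ciita* to -0.15, -0.16 and -0.005. With 1 tumor left out, KO differences ran from -0.38 to 0.078 for *H2-Ab1* and -0.58 to 0.0077 for *Ciita*, and clone 4 differences from -0.37 to 0.093 for *H2-Aa*, -0.22 to 0.23 for *H2-Ab1*, -0.38 to 0.13 for *H2-Eb1*, -0.46 to 0.11 for *H2-Ob* and -0.29 to 0.30 for *Ciita*. The r of *Ciita* with *H2-Oa* ran from -0.21 to 0.072, and that of the B cell markers with *H2-Ab1* lost its call without control tumor 1 (adjusted permutation p = 0.0956) or without control tumor 5. No paired analysis was possible because tumors carry numbers of their own that no other group shares. *H2-Ob* held 18 to 79 reads per tumor, so counting error is larger for it than for the chains of H2-DM, I-A and I-E.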
